A study of Mus musculus with 3 samples.

Results

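TBX5 is a T-box protein that controls transcription in the embryonic heart, and its binding was examined at 32 genes that mark endothelium, endocardium and the heart valves. The genes were taken from a list and matched by symbol to RefSeq, and all 32 were found among the 21631 protein-coding genes of chromosomes 1 to 19 and X. A gene was called bound if the summit of a TBX5 peak, the position of its highest signal, lay in the gene body or within 50 kb of it, and a narrower window of 10 kb was used for comparison. The chromatin was that of whole embryonic hearts of outbred CD-1 mice at day 14.5 of gestation. TBX5 was precipitated from it in 2 biological replicates, whose DNA was sequenced beside 1 sample of input chromatin. No genotype or treatment differed between the samples. The 12436 peaks came from 1 call on the pooled replicates, so no value per replicate exists here and no spread between replicates could be computed. The median summit was covered by 22 pooled fragments.

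Endothelial cells line the vessels, and the endocardium is the endothelium of the heart chambers. VEGF receptors, TIE receptors and endoglin carry growth signals into these cells, and ETS factors such as ERG and FLI1 keep their gene programme active. During valve formation part of the endocardium loses its junctions and enters the cardiac jelly, a step called endothelial to mesenchymal transition that SNAI1, SNAI2 and TWIST1 promote, and the resulting mesenchyme lays down matrix such as hyaluronan, versican and periostin. Flow over the endocardium induces KLF2 and KLF4. In a whole heart these cells lie among cardiomyocytes, and binding in few cells cannot be told apart from weak binding in many.

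Of the 32 genes, 18 had a summit within 50 kb (56.2%, exact binomial 95% interval 37.7 to 73.6), beside 49.8% of all protein-coding genes. Within 10 kb 11 were bound (34.4%, 18.6 to 53.2) beside 29.9% of all genes, and a summit inside the gene body was found for 8 (25.0%, beside 19.2%). Both shares lay near those of all genes. The windows held 32 summits, each counted for 1 member: 12 inside a member, 3 outside it within 10 kb and 17 between 10 and 50 kb away. The strongest lay in Pecam1, at 27.3-fold enrichment over the local background. Summits of at least 10-fold also stood near Erg, Has2, Fli1 and Snai1. These 5 genes were 15.6% of the members, beside 11.5% of all genes, and within 10 kb Pecam1 and Fli1 (6.25%) met the same rule, beside 5.78%. The other 14 genes, among them Cdh5, Kdr, Vwf, Nfatc1, Klf2, Postn and Twist1, had no summit within 50 kb. For those genes binding below the authors' threshold could not be assessed, because only called peaks are listed.

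RefSeq start windows on GRCm38.p6, the assembly that mm10 names, were at hand for 19 of the 32 genes. They numbered 25, and 1 of them, at Klf4, lay under a peak. The 250 bases before that start are shown first, with the 189 bases under the TBX5 peak in capitals. The T-box core AGGTGT was then searched for on both strands, and its matches are in capitals in the other sequences. Mrpl34 is a neighbour whose start carried the strongest promoter peak in any member's window, that of Plvap. Twist1 and Erg are the members with a match in a start window, and neither window lay under a peak. The Erg start is the one that the authors' table assigned to a summit 12135 bp further into the gene.
Klf4, chr4:55532476-55532725, minus strand: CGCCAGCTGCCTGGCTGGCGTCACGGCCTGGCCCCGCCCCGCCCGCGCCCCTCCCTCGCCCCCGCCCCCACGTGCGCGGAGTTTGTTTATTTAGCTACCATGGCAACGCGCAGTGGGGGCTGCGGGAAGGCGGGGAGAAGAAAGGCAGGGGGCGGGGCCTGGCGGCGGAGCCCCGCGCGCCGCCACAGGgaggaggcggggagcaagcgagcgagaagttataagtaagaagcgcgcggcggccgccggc
Mrpl34, chr8:71464676-71464925, plus strand: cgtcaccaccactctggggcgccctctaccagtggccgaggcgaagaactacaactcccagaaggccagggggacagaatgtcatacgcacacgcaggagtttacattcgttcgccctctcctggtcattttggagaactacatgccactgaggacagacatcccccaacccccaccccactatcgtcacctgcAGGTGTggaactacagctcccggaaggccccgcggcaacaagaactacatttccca
Twist1, chr12:33957421-33957670, plus strand: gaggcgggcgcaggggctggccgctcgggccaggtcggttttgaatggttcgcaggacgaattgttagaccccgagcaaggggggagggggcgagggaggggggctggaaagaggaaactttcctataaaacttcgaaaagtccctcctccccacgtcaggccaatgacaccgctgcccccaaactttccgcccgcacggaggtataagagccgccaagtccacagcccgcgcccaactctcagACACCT
Erg, chr16:95459349-95459598, minus strand: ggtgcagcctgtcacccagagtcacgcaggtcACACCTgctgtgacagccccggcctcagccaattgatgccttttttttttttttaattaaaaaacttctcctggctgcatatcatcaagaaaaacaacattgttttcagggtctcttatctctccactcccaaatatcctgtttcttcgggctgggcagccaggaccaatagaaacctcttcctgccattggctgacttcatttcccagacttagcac
No AGGTGT stood in the Klf4 window, whose 250 bases before the start held 74.0% G or C. In the Mrpl34 window the third base of the match lay 27 bp from the summit. The Twist1 match, on the opposite strand as ACACCT, directly preceded the start, and the nearest TBX5 summit to that gene was 211 kb away. AGGTGT was found in 2 of the 25 member windows of 300 bases and in 13.7% of all 32851 such windows. A GATA core, AGATAA, was in 3 of 25 beside 11.2%, and an ETS core, CAGGAAG, in 7 of 25 beside 13.3%. None of the 3 cores contains another, and a match describes sequence only.

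**Figure D1:**
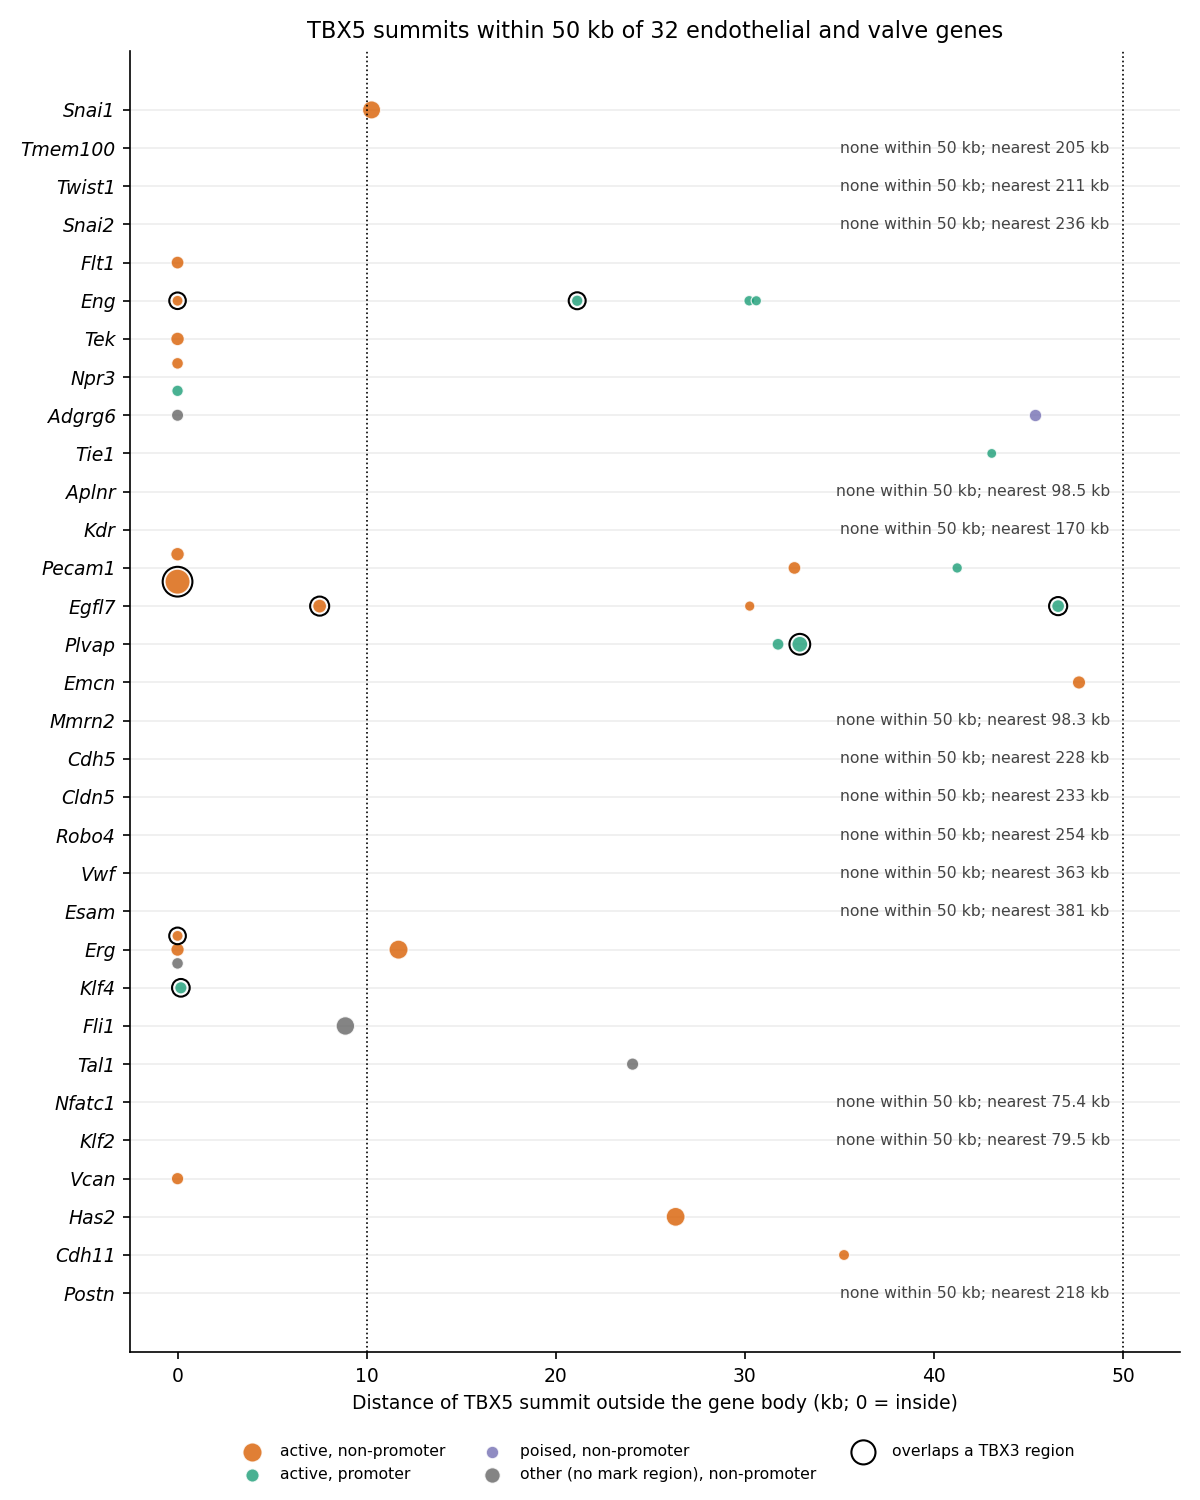
Each dot is a TBX5 summit within 50 kb of a member (rows, grouped by role), placed by its distance in kb outside the gene body, with 0 meaning inside, and several inside summits spread vertically. Dot area grows with fold enrichment, colour gives the authors' chromatin class and a ring marks overlap with a TBX3 region; dotted lines stand at 10 and 50 kb. The 12 inside summits belong to 8 genes, while 14 rows hold no summit.

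The genes of the endothelial surface and junctions were bound in 4 of 10 cases within 50 kb and in 2 of 10 within 10 kb, beside 49.8% and 29.9% of all genes. Pecam1, the adhesion molecule CD31 of endothelial junctions, had 4 summits, as Erg and Eng did, and no member had more. A pair of them lay 3262 bp apart inside the gene. The stronger one, at 106677601 to 106678284 on chromosome 11, reached 27.3-fold (22.4 to 33.0, an exact 95% Poisson interval for the fragment count that takes the background as known). It rested on 104 fragments, and 98.1% of all peaks had a lower fold. It overlapped H3K4me1 and H3K27ac in both region files of each mark as well as a TBX3 region. The other, at 106674655 to 106674928, had 6.84-fold enrichment (4.69 to 9.67) and overlapped H3K4me3 and H3K9ac besides H3K4me1 and H3K27ac. The intervals of these summits do not overlap. The remaining pair lay 32623 and 41230 bp outside the gene and nearer to Tex2. The farther one, at 3.39-fold (2.13 to 5.15), stood 53 bp upstream of the Tex2 start.

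Egfl7 encodes a secreted endothelial factor and hosts the microRNA gene miR-126. It had 3 summits and none in its short body. The strongest lay 7515 bp outside it, upstream of its start, at 26573421 to 26573696 on chromosome 2, where 32 fragments gave 7.28-fold (5.05 to 10.2), and overlapped TBX3. A weaker summit 30258 bp outside, of 3.31-fold (1.91 to 5.4), overlapped the active marks H3K4me1 and H3K27ac without TBX3. The third lay 46569 bp away on the opposite side, nearest to Dipk1b, at a promoter-class peak of 5.96-fold (3.55 to 9.45).

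Plvap, the diaphragm protein of fenestrated endothelium, was bound only through a neighbour. Its window held 2 promoter-class summits 1152 bp apart at Mrpl34, a mitochondrial ribosomal protein gene, 32908 and 31756 bp from Plvap. The stronger had 9.92-fold enrichment (7.79 to 12.5) from 72 fragments and overlapped TBX3, and the weaker had 4.85-fold (3.09 to 7.30). Emcn, the sialomucin endomucin, had 1 summit 47672 bp outside its body, the farthest of all, with 6.50-fold enrichment (4.26 to 9.55) and active marks. No summit stood within 50 kb of Cdh5, the VE-cadherin of adherens junctions, where the nearest was 228 kb away, or of Cldn5, the tight junction claudin (233 kb). The same held for Esam (381 kb), Robo4 (254 kb), Mmrn2 (98.3 kb) and Vwf (363 kb), the von Willebrand factor gene.

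Receptor genes were bound in 6 of 8 cases within 50 kb and 5 of 8 within 10 kb, beside 49.8% and 29.9% of all genes, and none of their 11 summits reached 10-fold. Tek, the angiopoietin receptor TIE2, had a summit inside the gene at 94752471 to 94752931 on chromosome 4, 13337 bp downstream of the start, where 30 fragments gave 6.84-fold (4.69 to 9.67). It overlapped H3K4me1 and H3K27ac. Its paralogue Tie1 had no summit of its own within 10 kb. The single summit in the Tie1 window, 43057 bp away at the start of Elovl1, was the weakest of all 32 at 2.95-fold (1.98 to 4.25). Flt1, the VEGF receptor that also acts as a decoy, held a summit of 6.01-fold (3.87 to 8.97) with active marks, on chromosome 5 from 147606856 to 147607137. Kdr, the main signalling VEGF receptor, had none nearer than 170 kb. Both families held a gene with a summit in its body and a gene without one within 10 kb.

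Eng encodes endoglin, a coreceptor for BMP9 and TGF-beta. Its 4 summits ranged from 3.26-fold to 4.37-fold. The one inside the gene, at 32661985 to 32662269 on chromosome 2, reached 3.87-fold (2.49 to 5.77) from 22 fragments and overlapped TBX3, H3K4me1, H3K9ac and H3K27ac. The others were promoter-class summits of neighbours: 1 lay 23 bp from the Ak1 start at 4.37-fold (2.89 to 6.38), and 2 lay 378 bp apart beside Cdk9. Npr3, a natriuretic peptide clearance receptor expressed in endocardium, held 2 summits inside its body 8812 bp apart, of 4.70-fold (2.66 to 7.80) and 4.40-fold (2.54 to 7.18). The second was of the promoter class, with its summit at 11906188 on chromosome 15. The nearest start, 337 bp away, was that of Gm5144, a non-coding RNA that starts inside the Npr3 body. The Npr3 start window itself, from 11907322 to 11907621, was not under a peak. Adgrg6, an adhesion G protein-coupled receptor needed for heart development, had a summit inside the gene without any mark at 5.23-fold (2.90 to 8.84) and another 45337 bp outside at 5.61-fold (3.29 to 9.02). That outer summit was the only 1 of the 32 in the poised class, with H3K4me1 in 1 of 2 files. Aplnr, the apelin receptor, had no summit nearer than 98.5 kb.

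**Figure D2:**
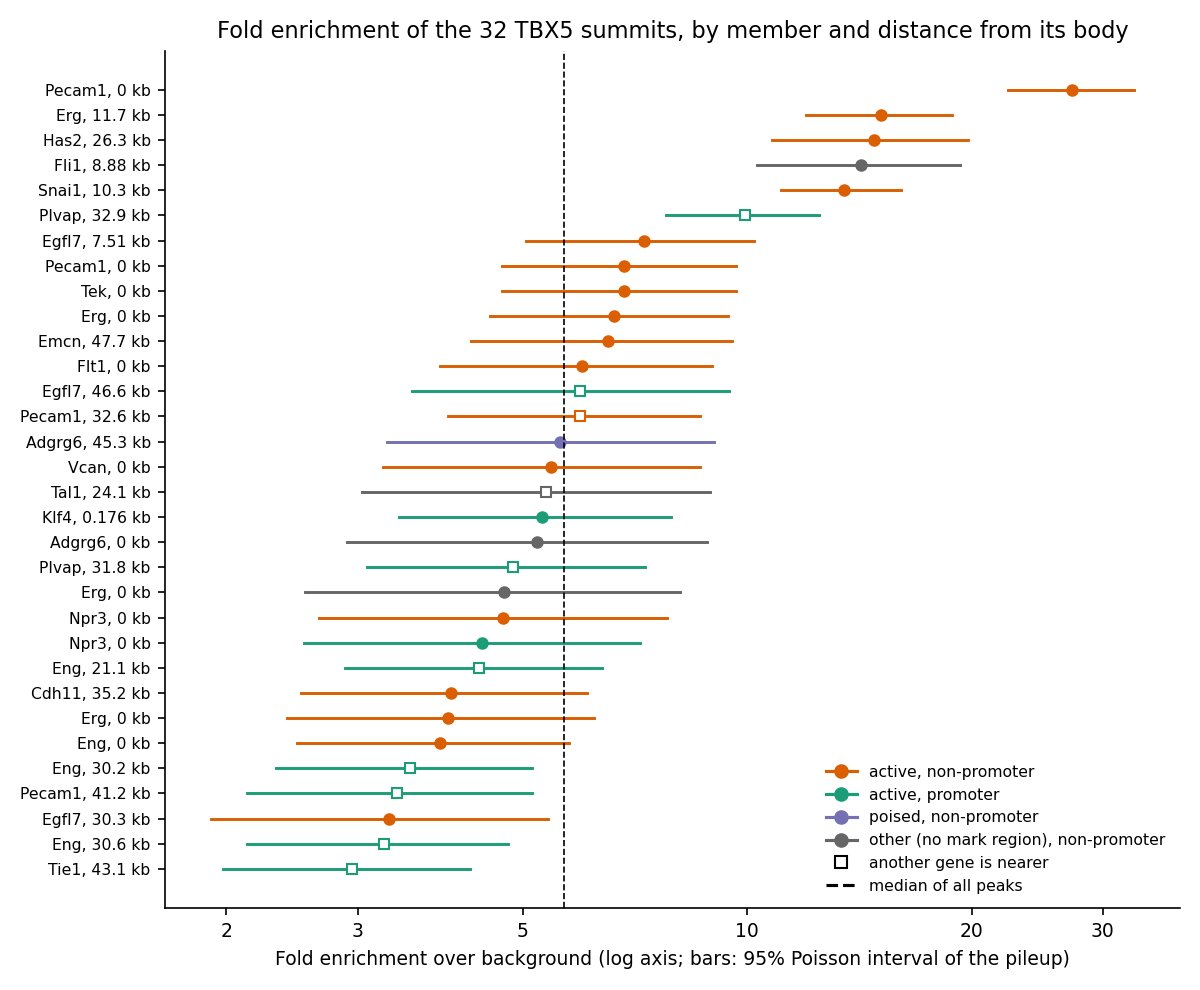
Points give the fold enrichment (log axis) of the 32 summits, each labelled with its member and its distance in kb from that gene's body, and bars the 95% Poisson interval of the pileup. Colours are chromatin classes, open squares mark summits to which another protein-coding gene is nearer, and the dashed line is the median of all peaks. Above 10-fold stand 5 summits, and for all 5 the member is the nearest protein-coding gene.

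Among the transcription factor genes 4 of 6 were bound within 50 kb and 3 of 6 within 10 kb, beside the same 49.8% and 29.9%. Erg, an ETS factor of endothelium, held 3 summits in its body, of 3.97-fold (2.41 to 6.23), 6.62-fold (4.51 to 9.41) and 4.71-fold (2.55 to 8.13). Its strongest summit lay 11686 bp beyond the end of the body that is far from the start, on chromosome 16 from 95347280 to 95347874, where 78 fragments gave 15.1-fold (12.0 to 18.8). That summit overlapped H3K4me1 and H3K27ac in both files, and the weakest of the 4 was the one that overlapped TBX3. Fli1, the ETS paralogue of Erg, had 1 summit 8875 bp outside its body on chromosome 9 from 32413173 to 32413484, where 40 fragments gave 14.2-fold (10.3 to 19.3). It overlapped none of the 6 marks and no TBX3 region. The intervals of the strongest Erg and Fli1 summits overlap.

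Tal1, a basic helix-loop-helix factor of blood and endocardium, was bound through a summit 24064 bp upstream of its start, inside the body of the neighbouring gene Stil. It had 5.37-fold enrichment (3.04 to 8.91) from 13 fragments and no mark. Klf4 had a promoter-class peak at 55532537 to 55532982 on chromosome 4, whose summit stood 176 bp upstream of its start and 59 bp upstream of the non-coding RNA Gm12506, which is transcribed the other way. The fold was 5.30 (3.41 to 7.91) from 22 fragments, and the peak overlapped H3K4me3, H3K9ac, H3K27ac and TBX3. It was the only 1 of the 10 promoter-class peaks that overlapped a member's own start window, among the windows at hand. The nearest summit to Klf2, the other flow-induced gene of the family, was 79.5 kb away. Nfatc1, which the endocardium needs to form valves, lay 75.4 kb from the nearest summit. At the 50 kb limit Emcn at 47.7 kb was the farthest gene still counted, and Nfatc1 was the nearest one not counted. At the 10 kb limit Fli1 at 8875 bp was inside and Snai1 at 10260 bp outside.

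Genes for the endothelial to mesenchymal transition were bound in 1 of 4 cases at 50 kb and in 0 of 4 at 10 kb, beside 49.8% and 29.9% of all genes. Their median body was 4.08 kb. Twist1 and Snai2 had bodies of up to 4.32 kb, and of all such genes 29.3% were bound at 50 kb and 12.3% at 10 kb. Snai1 and Tmem100 had bodies of 4.32 to 11.9 kb, where 48.2% and 22.6% of all genes were bound. Snai1, a repressor of epithelial and endothelial junction genes, had 1 summit, at 167552888 to 167553313 on chromosome 2. It reached 13.5-fold (11.1 to 16.1) on 117 fragments, the most of any of the 32, and overlapped H3K4me1 and H3K27ac in both files. The non-coding RNA Gm11476 starts 238 bp from it. Snai2 (236 kb), Twist1 (211 kb) and Tmem100 (205 kb), a BMP target of endocardium, had no summit within 200 kb. Matrix and adhesion genes of the valves were bound in 3 of 4 cases at 50 kb and 1 of 4 at 10 kb, beside 49.8% and 29.9%. Has2, the hyaluronan synthase of the cardiac jelly, had a summit 26339 bp upstream of its start, on chromosome 15 from 56720727 to 56721065, where 43 fragments gave 14.8-fold (10.8 to 19.8). Each of H3K4me1 and H3K27ac was marked there in 1 of 2 files. Vcan, which encodes the proteoglycan versican, had a summit inside the gene of 5.45-fold (3.25 to 8.65), and Cdh11, a cadherin of valve mesenchyme, one 35246 bp outside of 4.01-fold (2.52 to 6.09), both with active marks. Postn, which encodes the matrix protein periostin, lay 218 kb from the nearest summit.

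Many summits stood nearer to other genes. Of the 32 summits 22 had the member as the nearest protein-coding gene, and for 10 another gene was nearer. Plvap, Tal1 and Tie1 were bound only through such summits. Of the 10 promoter-class summits 8 were nearer to another gene. Their nearest protein-coding genes were Tex2, Ak1, Cdk9 (2), Dipk1b, Mrpl34 (2) and Elovl1. The summit nearest to Dipk1b lay 2754 bp from that gene, and 1 of the Cdk9 pair lay 33 bp from the start of Gm33457. The other 2 promoter-class summits were those of Npr3 and Klf4. Bound members had a median body of 64.5 kb and unbound members one of 11.2 kb, beside 17.3 kb over all genes. Among the 12 members with a body of 57.8 kb or more 10 were bound at 50 kb, where 66.8% of all genes of that length were. Of the 5 members with a body of up to 4.32 kb 0 were bound, beside 29.3% of all genes of that length. Between these, 3 of 5 members of 4.32 to 11.9 kb were bound (beside 48.2% of all such genes), 3 of 4 of 11.9 to 24.9 kb (50.7%) and 2 of 6 of 24.9 to 57.8 kb (53.8%). With so few members per group, no trend with length can be read from these counts. Member windows held 6.38 summits per Mb, and the windows of all protein-coding genes 6.32. The median distance from a gene to its nearest summit was 39.2 kb for members and 50.4 kb for all genes, and 9 of 32 members (28.1%) lay beyond 200 kb, beside 23.1% of all genes.

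Stricter or wider rules gave counts that mostly stayed near those of all genes. Members with a summit of −log10 q of at least 10 within 50 kb numbered 9 (28.1%, beside 26.0% of all genes), and 12 of the 32 summits (37.5%) passed that limit, beside 41.5% of all peaks. Those with a summit at or above the median fold of the whole list numbered 10 (beside 28.8% of all genes). Within 100 kb 22 members were bound (68.8%, beside 63.7%). Outside the promoter class 15 members had a summit within 50 kb (46.9%), beside 33.2% of all genes. Where a summit counted only for its nearest gene, 15 members were bound (46.9%, 29.1 to 65.3), beside 26.2% of all genes. Members also had fewer neighbours, with a median of 1 other protein-coding gene within 50 kb of the body beside 3 for all genes. Among genes with 0 or 1 neighbour 35.9% were bound by the nearest-gene rule, and 10 of the 20 members of that kind were. Among those with 2 or 3 neighbours 26.8% were, and 4 of 8 members. The part of gene spacing and gene length in these shares was not tested.

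The 32 summits had a median fold of 5.41 (order-statistic 95% interval 4.40 to 6.62), beside 5.67 over all 12436 peaks, and a median of 23 fragments beside 22. H3K27ac, a mark of active enhancers and promoters, overlapped 25 of the 32 (78.1%, 60.0 to 90.7) beside 73.5% of all peaks. H3K4me1, found at enhancers, overlapped 24 (75.0%) beside 72.3%, and H3K9ac 16 (50.0%) beside 46.0%. H3K4me3, the mark of active starts, overlapped 13 (40.6%) beside 31.8%. H3K27me3, the Polycomb mark, and H3K9me3, of heterochromatin, overlapped 0 of 32, which allows a share of up to 9.38% if a count of 0 is taken as at most 3 and has an exact 95% upper limit of 10.9%, beside 1.63% and 0.241% of all peaks. In the authors' classes 17 were active non-promoter peaks, 10 active promoters, 4 other and 1 poised. The 4 peaks without any mark were those at Fli1, Tal1, Adgrg6 and 1 inside Erg. Each of these shares has the value over all peaks within its interval.

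**Figure D3:**
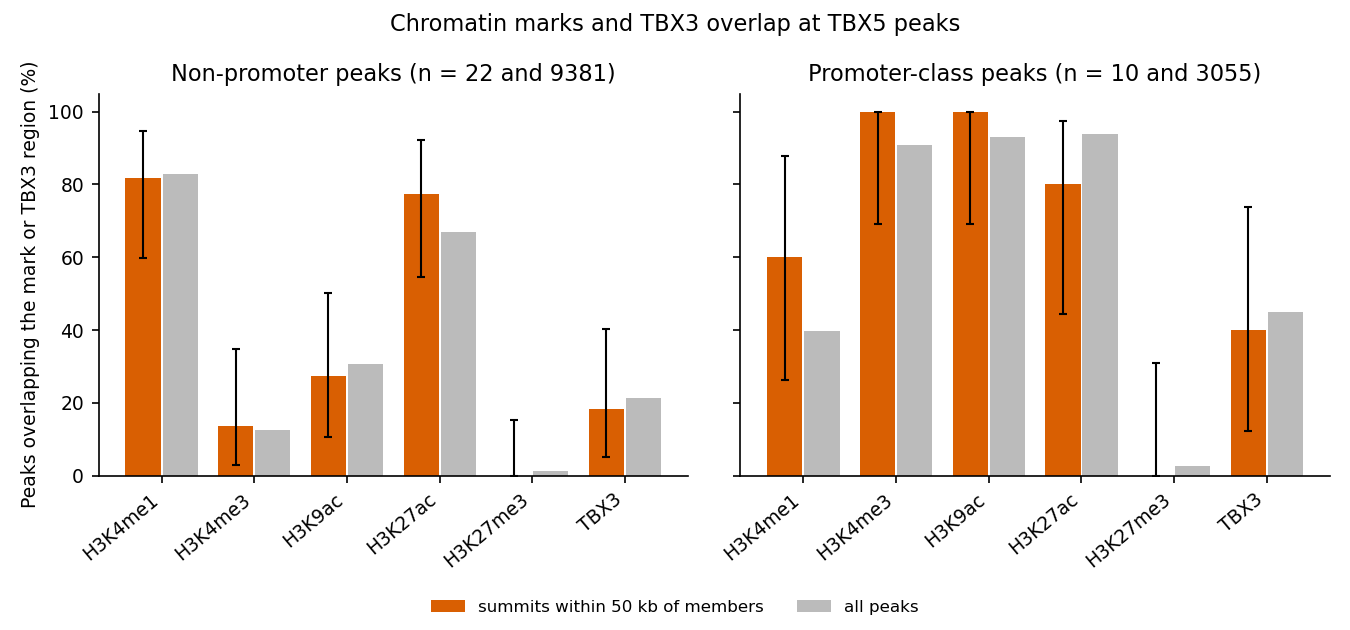
Bars give the percentage of peaks that overlap a histone mark or a TBX3 region, for summits within 50 kb of members (orange, with exact binomial 95% intervals) and for all peaks (grey), separately outside and inside the authors' promoter class. Every grey bar lies within the interval of the orange bar beside it, and the intervals are wide with 22 and 10 summits.

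TBX3, a related T-box factor that represses the working myocardial programme in the conduction system, shared regions with 8 of the 32 summits (25.0%, 11.5 to 43.4) beside 27% of all peaks. They belonged to 6 genes: Eng and Egfl7 with 2 each, and Pecam1, Erg, Plvap and Klf4 with 1 each. Promoter-class summits overlapped TBX3 in 4 of 10 cases beside 45.0% of all promoter-class peaks, and the others in 4 of 22 beside 21.2%. Within 10 kb of a member TBX3 overlap was seen at 5 of 15 summits. Of the 8 shared summits 7 also overlapped H3K9ac (87.5%), beside 72.2% of all peaks with TBX3, and of the 24 without TBX3 9 did (37.5%), beside 36.3% of all peaks without it. The promoter class held 4 of those 8 summits and 6 of those 24, and all 10 of them overlapped H3K9ac. Outside the promoter class H3K9ac overlapped 3 of 4 summits with TBX3, beside 54.7% of all such peaks, and 3 of 18 without it, beside 24.2%. H3K27ac overlapped 7 of the 8 and 18 of the 24, beside 92.1% and 66.7% of all peaks with and without TBX3. The summits with TBX3 had a median fold of 5.63 and those without it 5.41. Of the 5 summits above 10-fold 1 overlapped TBX3, that of Pecam1, beside 429 of all 2076 peaks of at least 10-fold.

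Other genes of the same pathways, chosen with earlier results known, gave varied counts, to be read beside 49.8% of all genes bound at 50 kb and 29.9% at 10 kb. Of 18 genes of VEGF, angiopoietin, apelin and BMP9 signalling 11 were bound at 50 kb and 6 at 10 kb. Nrp1, a VEGF and semaphorin coreceptor, was highest by the strongest summit within 10 kb at 42.9-fold (36.1 to 50.5), followed within that limit by Flt4 at 8.36-fold (5.77 to 11.8), Vegfa at 7.72-fold (5.42 to 10.7) and Nrp2 at 6.49-fold (4.53 to 9.04). Within 50 kb Nos3 (33.8-fold, 29.3 to 38.8), Nrp2 (22.9-fold, 18.1 to 28.8) and Vegfb (11.2-fold, 8.35 to 14.7) stood above Flt4. The nearest summits to Nos3 and Vegfb lay 12.1 and 26.8 kb away. Whether another gene was nearer to a summit was not examined for these lists. The Flt4 peak, at the lymphatic VEGF receptor, was in the authors' repressed class. Of 12 further endothelial transcription factor genes only Elk3 (9.74-fold, 7.28 to 12.8) and Etv2 (4.83-fold, 2.61 to 8.33, within 10 kb) were bound, with 10 unbound at 50 kb, among them Sox17, Sox18, Ets1, Lmo2 and Gata2. In the shear stress and cerebral cavernous malformation pathway that acts upstream of Klf2 and Klf4, 8 of 11 genes were bound at 50 kb and 7 at 10 kb. Within 10 kb Mef2a (17.1-fold, 14.3 to 20.4), Map2k5 (9.93-fold, 7.07 to 13.6), Pdcd10 (8.98-fold, 6.03 to 12.9) and Ccm2 (7.47-fold, 4.89 to 11.0) were highest there, and within 50 kb Mef2d (11.0-fold, 7.95 to 14.9) stood between Mef2a and Map2k5. Of 23 other genes of valve development 16 were bound at 50 kb and 9 at 10 kb. Among the 16, Hapln1 was counted for a summit 45.7 kb away with the same fold and interval as the one inside Vcan, a member. Prox1 (11.1-fold, 7.77 to 15.5), Zeb1 (10.6-fold, 7.34 to 14.8), Tgfbr3 (10.5-fold, 7.51 to 14.2) and Tgfbr1 (9.94-fold, 6.81 to 14.1) led that list within 10 kb. Within 50 kb it was led by Dcn (23.0-fold, 17.4 to 29.7), Prox1 (17.2-fold, 12.7 to 22.9), Erbb3 (12.9-fold, 9.78 to 16.7) and Acan (12.8-fold, 9.51 to 16.9). The nearest summits to Dcn, Erbb3 and Acan lay 42.5, 18.2 and 18.5 kb away. No summit lay within 50 kb of 7 genes, including Sox9, Msx1 and Edn1.

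For comparison, 21 of 22 sarcomere genes were bound at either window, beside 49.8% of all genes at 50 kb and 29.9% at 10 kb. Their median body was 25.0 kb, beside 30.3 kb for the members. Of 20 epicardial, fibroblast and smooth muscle genes 9 were bound at 50 kb (45.0%) and 3 at 10 kb (15.0%). By their strongest summit within 10 kb these 3 were Myh11 (18.3-fold, 14.9 to 22.4), Tbx18 (13.8-fold, 10.0 to 18.5) and Col1a1 (4.37-fold, 2.89 to 6.38). Of 14 blood genes 5 were bound at 50 kb (35.7%) and 3 at 10 kb (21.4%). No test was made between these lists, which were not matched on gene length.

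**Figure D4:**
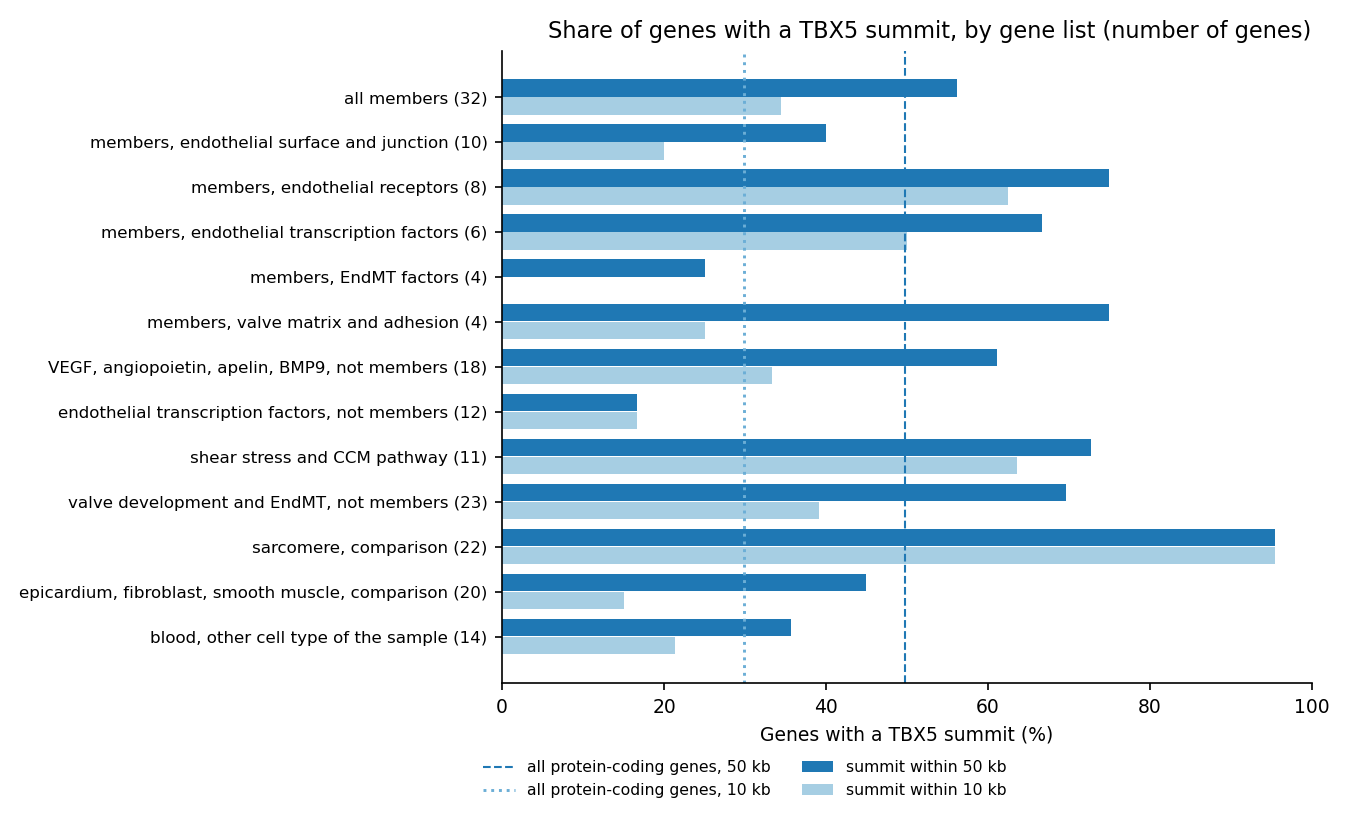
Bars give the percentage of genes in each list (number of genes in brackets) with a TBX5 summit within 50 kb (dark) or 10 kb (light) of the gene body, and dashed and dotted lines the same percentages over all protein-coding genes. The members stand at 56.2% and 34.4%, near the lines at 49.8% and 29.9%, while sarcomere genes stand at 95.5% for both windows.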

How the data were processed

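The authors made the peaks with Bowtie2, SAMtools and MACS2 on mm10 and annotated them with ChIPseeker, per the submitters' processing notes, and called them once on pooled samples, per the file headers and names. Versions, settings and read depth were not given in the sources used here. Each deposited fold is a ratio over local background, and the deposited −log10 p, −log10 q and score belong to the same call. The deposited table marks, per peak, overlap with histone and TBX3 regions, with tissue, stage and overlap rule of those regions not given in the sources used here. Any mark with 2 region files was counted if either file had it. The promoter class holds peaks whose listed distance to the start that the authors assigned was at most 2000 bp. Other starts could lie nearer. The non-promoter summits of Snai1 and Fli1 stood 238 and 1576 bp from the starts of Gm11476 and Gm31755.

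Pileup and background were solved from fold and −log10 p, which matched within 0.0005 for all 12436 peaks, after a check on simulated peaks. Intervals cover counting error of pooled fragments or of shares, and treat peaks as independent. Gene bodies came from RefSeq, GRCm38.p6, without strand, and positions are 1-based. Every member was described: by the fold of each summit within 10 kb, by its strongest summit where one lay only within 50 kb, and otherwise by the nearest distance. Positions, fragment counts and marks were given for part of these summits. Of other lists up to 4 genes of highest fold within 10 kb were named, other names having been chosen after their values were seen. Sarcomere and blood genes were only counted. No significance test was made. Members and lists were chosen with earlier results of these data known. Computation used scipy 1.17.1, numpy 2.4.6 and pandas 2.3.3 under Python 3.11.15, with plots by matplotlib 3.10.9.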

Additional observations from a re-analysis of the deposited data

How the results depend on the processing

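Of 62 recomputed values 43 stayed within 1.5 times the count, or within the interval of the median or share, and 19 did not. With peaks of −log10 q of at least 10, members bound numbered 9 at 50 kb (28.1%, beside 26.0% of all genes) and 5 at 10 kb (15.6%, beside 13.8%), with 12 summits, a median fold of 8.6, 91.7% with H3K27ac and 8.33% of the promoter class. With peaks at or above the median fold of the list they numbered 10 (31.2%, beside 28.8%) and 6 (18.8%, beside 15.0%), with 14 summits, a median fold of 7.06 and 14.3% of the promoter class. A 10 kb window gave 11 members, 15 summits and 13.3% of the promoter class, and bodies without extension gave 8 members, 12 summits and 8.33%. A 100 kb window in place of 10 kb gave 22 members (68.8%, beside 63.7%). With the nearest gene only, 9.09% of summits were of the promoter class. The TBX3 share ran from 18.2% to 33.3% and the H3K27me3 share was 0 in all 8 alternatives. Counting any base of the peak changed none of the 8 values. No paired analysis was possible because peaks were called on pooled replicates and the input carries no replicate number, and for the same reason no replicate could be left out. Low pileups limit precision: 11 to 117 fragments lay under these summits.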

Other observations

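Beyond the 50 kb window 4 further members had a summit within 100 kb, and for each of them another gene was nearer. Klf2 had a promoter-class summit 79472 bp away beside Ap1m1, of 7.69-fold (4.99 to 11.4) with TBX3 overlap, and a second 99523 bp away in Eps15l1 of 3.67-fold (2.12 to 5.99). Nfatc1 had a summit without marks in Atp9b (6.14-fold, 3.60 to 9.87), Aplnr one nearest to Lrrc55 (8.44-fold, 5.37 to 12.7) and Mmrn2 a promoter-class summit in Bmpr1a (4.94-fold, 3.37 to 7.03) with TBX3 overlap.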
